A study of Mus musculus with 5 samples.

Results

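Nicotinic acetylcholine receptor subunits were described across the annotated cell types of the mouse lumbar dorsal root ganglion, the cluster of sensory neuron cell bodies beside the spinal cord. The members were 8 genes (Chrna3, Chrna4, Chrna5, Chrna6, Chrna7, Chrnb2, Chrnb3 and Chrnb4), matched by the symbol that precedes the chromosome and strand in each row name. A row was found for 7 of the 8 among 17267 rows that name a mouse gene, and Chrna5 was not analysed here. The study profiled dissociated ganglia of 5 wild-type C57BL/6 mice by droplet single-cell RNA sequencing with unique molecular identifiers (UMIs). The mice were males and females, 18 weeks old, and no treatment is stated. There was 1 group and hence no comparison between treatments, so the comparisons below are between cell types within the same mice. The deposited matrix holds 3352 cells in 14 types annotated by the authors, of which 3047 are neurons in 12 types, 249 are satellite glia and 56 are endothelial cells. Libraries are called A to E and each was taken as 1 mouse. Library A holds 164 cells and 13050375 UMIs, library B 539 cells and 42666954 UMIs, library C 474 cells and 28667742 UMIs, library D 805 cells and 51281229 UMIs, and library E 1370 cells and 88886919 UMIs. Library A is the thinnest, with 4 cells of type PEP1_Dcn, 4 of NP_Mrgpra3, 3 of NF2_Ntrk2.Necab2 and 3 endothelial cells, so its values in these types rest on few cells. A barcode that occurs in more than 1 library was found 7 times, in 14 of 3352 cells.

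Nicotinic receptors are ion channels built from several subunits around a central pore that opens when acetylcholine or nicotine binds. Alpha subunits such as those encoded by Chrna3, Chrna4 and Chrna6 carry the main part of the binding site, beta subunits encoded by Chrnb2 and Chrnb4 complete it, and the subunits encoded by Chrna5 and Chrnb3 join as accessory subunits that do not form a site of the classic kind. The alpha3 and beta4 subunits are best known from autonomic ganglia, alpha4 and beta2 from the brain, alpha6 from dopaminergic and retinal neurons, and alpha7 forms channels on its own, while sensory ganglia are known to hold several of these combinations.

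The broad classes of the type names were checked against markers in the summed counts. Counts were summed over the cells of a type in each library and divided by all UMIs of that sum, times 1000000 (CPM). The summed level of 7 neuron markers ranged from 8771 CPM in Th to 13318 CPM in PEP2_Htr3a.Sema5a among neuron types, against 595 CPM in satellite glia and 639.7 CPM in endothelial cells. The summed level of 6 satellite glia markers was 90659 CPM in satellite glia, where Apoe was the most abundant, 5562 CPM in endothelial cells and 178 to 736 CPM in neuron types. The 6 endothelial markers summed to 9784 CPM in endothelial cells, 35.3 CPM in satellite glia and at most 7.54 CPM in a neuron type. For PEP1_Dcn, which becomes the leading type for several subunits, Dcn stood at 538 CPM, and the 5 fibroblast genes with a row, Dcn among them, summed to 539 CPM with Col1a2 at 0 and 4 of the 5 under 1 CPM. Calca, the gene of a peptide that marks peptidergic neurons, stood at 9700.1 CPM in PEP1_Dcn. The genes in a type's own name were each highest in that type where they were on a marker list, but the summed lists did not single out 5 types. The lists for PEP1_Dcn, PEP1_Slc7a3.Sstr2 and PEP2_Htr3a.Sema5a, which hold Calca, were highest in PEP1_S100a11.Tagln2, and the list for NF2_Ntrk2.Necab2, which holds Nefh, was highest in NF_Pvalb (5557 CPM, against 2732 CPM in its own type). The list for NF_Calb1, which also holds Nefh, stood at 5559 CPM there and 5546 CPM in NF_Pvalb. The 6 Schwann cell and 6 macrophage markers summed to 388 and 8.82 CPM in PEP1_Dcn, led by Pmp22 and Cx3cr1 with Ptprc at 0.

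Each type was compared with all other cells of the same libraries by edgeR's quasi-likelihood test on the sums, 5 against 5, and a gene was called where its p adjusted over all genes tested in that type was under 0.01 and its fold was at least 2. These other cells, the rest, weigh each type by its UMIs, and NP_Mrgprd holds 92245664 of the 224553362 UMIs. It is in the rest of every type but its own, so folds of different types are against different rests. The types were clustered by the authors on these same counts, so the tests measure how far types differ and are no independent evidence that the types exist. Of 98 pairs of a member and a type, 84 could be tested, because Chrna7 fell below the filter on low counts in all 14 types. A member was higher in 12 of the 84 pairs, beside 9.32% of all gene and type pairs, and lower in 52, beside 16.4%. The 6 tested members passed the filter in all 14 types, but where they are low they can pass through the sums of the other cells. Chrna3 did so in Th, with 0 UMIs there, and was called lower. So a lower call can follow from a high level in other types, and these counts describe the members and support nothing further. The 6 tested members were each higher in exactly 2 types, which were the same types for Chrna3 and Chrnb4 and differed in at least 1 type for every other pair of members. The plot of CPM by cell type and library shows this layout.

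**Figure D1:**
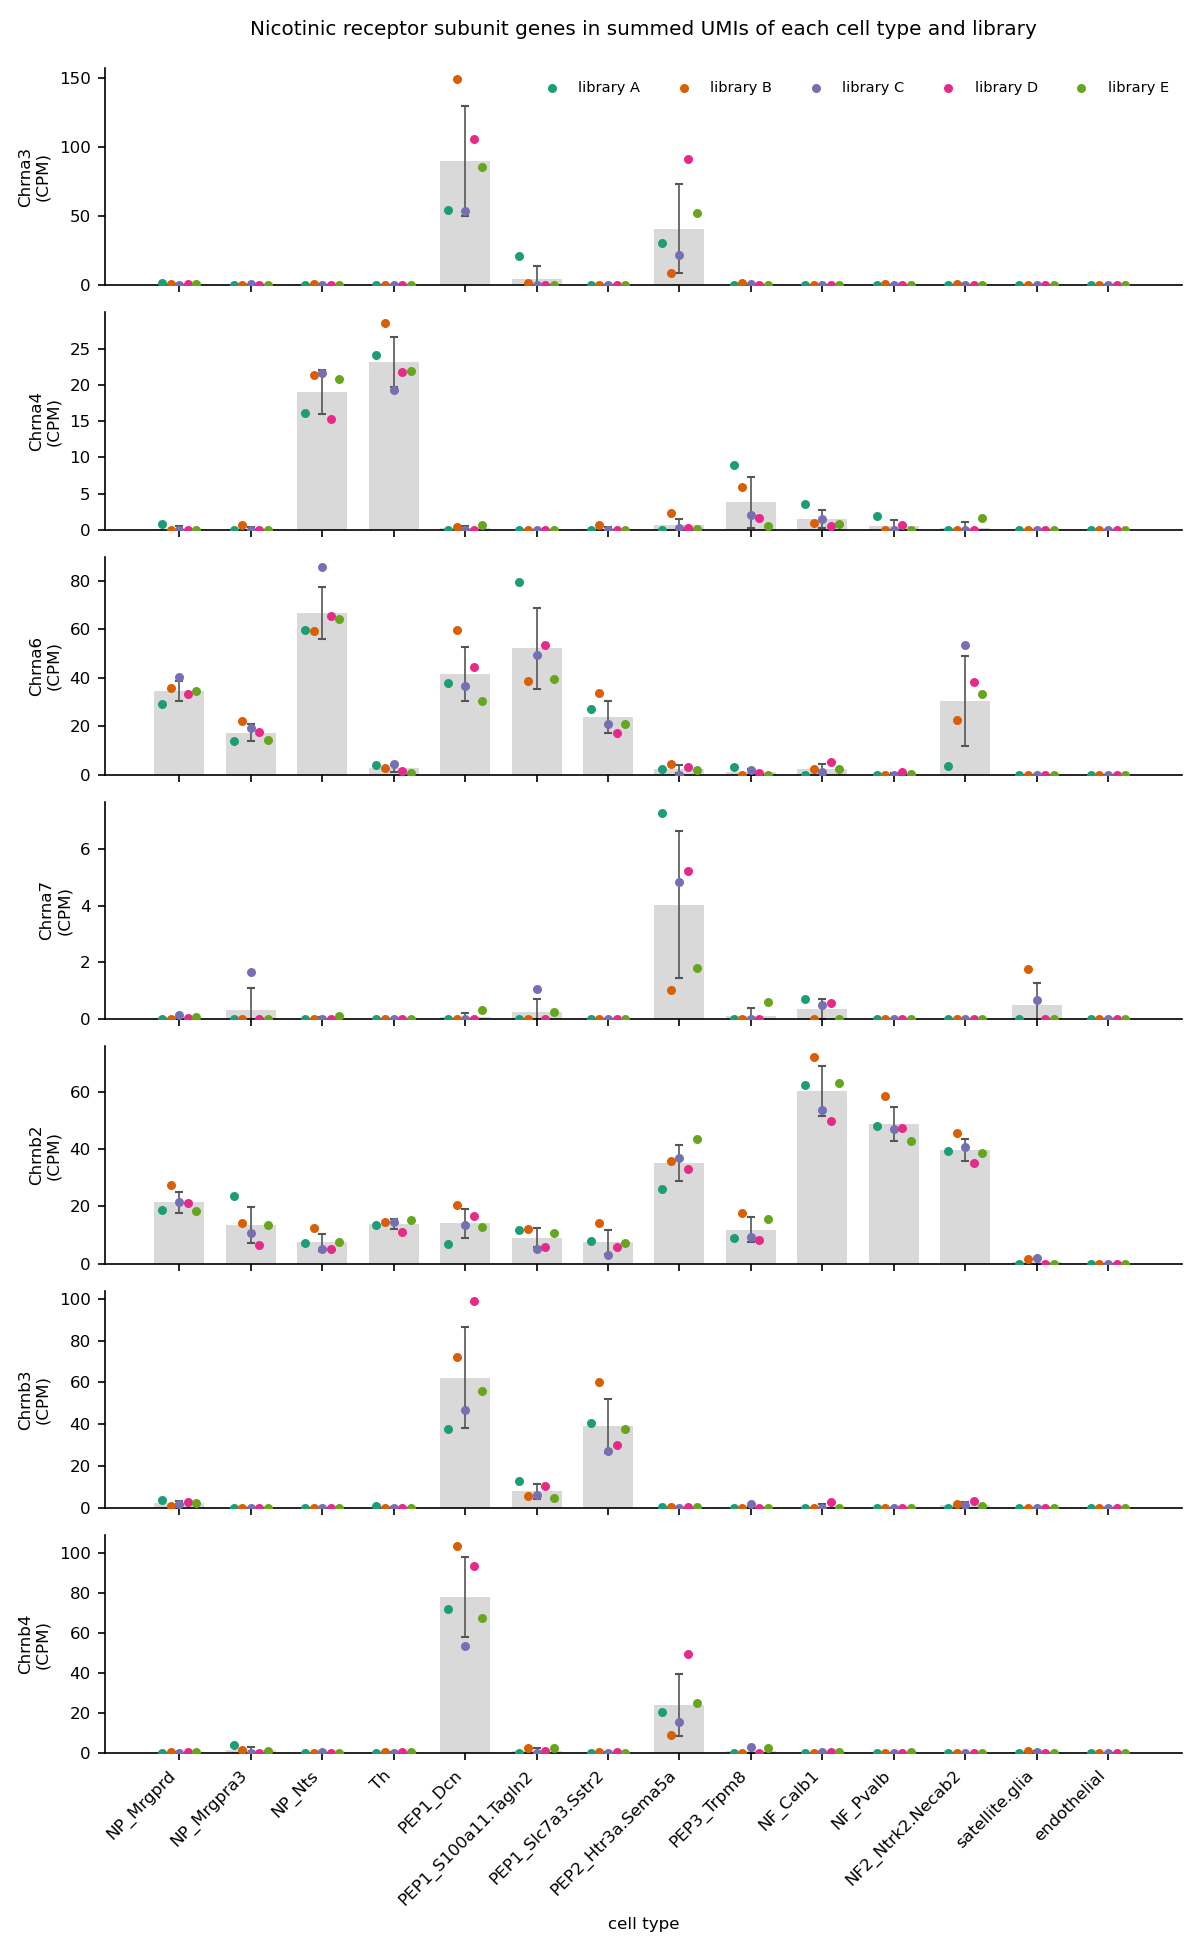
Level of each nicotinic subunit gene (y axis, CPM of summed UMIs) in the 14 cell types (x axis), with 1 point per library A to E, a grey bar at the mean and a line of 1 SD (n = 5). Chrna3 and Chrnb4 peak in PEP1_Dcn at means of 89.7 and 77.9 CPM. The mean of Chrnb2 is at or above 7.54 CPM in all 12 neuron types.

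Chrna3 encodes the alpha subunit of the receptor type best known from autonomic ganglia. In PEP1_Dcn its level was 54.8 CPM in library A, 149 in B, 53.4 in C, 106 in D and 85.4 in E. Library B was the highest and C the lowest, and all 5 lay above every library of the 12 types other than PEP2_Htr3a.Sema5a. In PEP2_Htr3a.Sema5a its level was 30.8 CPM in A, 8.91 in B, 22.0 in C, 91.4 in D and 52.1 in E. Library B, highest in PEP1_Dcn, was lowest here, and the ranges of both types overlapped. In library A, 37 of the 38 UMIs of Chrna3 in PEP2_Htr3a.Sema5a came from 1 of 13 cells. The mean level was 89.7 ± 39.9 CPM (SD, n = 5) in PEP1_Dcn and 41.0 ± 32.3 CPM (SD, n = 5) in PEP2_Htr3a.Sema5a, and Chrna3 was higher than in the rest of the cells in both (log2 fold change 4.64, SE 0.36, edgeR adjusted p = 1.55e-07, and log2 fold change 3.05, SE 0.51, edgeR adjusted p = 0.00018). Between these types the log2 difference was 1.22 (SE 0.41, edgeR adjusted p = 0.0232), beside 39.3% of genes past an adjusted p of 0.05 in either direction in that pair. That difference fell to 0.68 without library B (adjusted p = 0.127), and without library E it was 1.36 but no longer passed (adjusted p = 0.0521).

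Chrna3 was carried by part of the cells of each type. A UMI was present in 80 of 163 cells of PEP1_Dcn (49.1%) and in 71 of 206 cells of PEP2_Htr3a.Sema5a (34.5%), against 0 of 249 satellite glia, which allows a share of up to 1.20%, and 0 of 56 endothelial cells, which allows up to 5.36%. Such limits, here and below, are on the share of cells with a UMI at that depth and not on the share that express the gene. Median depth was 49516 UMIs per cell in PEP1_Dcn, 73919 in PEP2_Htr3a.Sema5a, 17729 in satellite glia and 16889 in endothelial cells. With each cell thinned to 10000 UMIs, the shares were 33.7% in PEP1_Dcn and 18.3% in PEP2_Htr3a.Sema5a. Positive cells held many UMIs, with a median of 8 and a maximum of 76 in PEP1_Dcn and a median of 4 and a maximum of 64 in PEP2_Htr3a.Sema5a. The share in PEP2_Htr3a.Sema5a ran from 14.6% of cells in library B to 55.0% in library D. PEP1_S100a11.Tagln2 came next at 4.65 ± 9.48 CPM (SD, n = 5), a mean that 1 cell of library A with 13 UMIs sets, as the other 4 libraries held 0 to 1.39 CPM with a mean of 0.414 CPM. The log2 fold change there was −1.87 and not called, but −4.17 and called lower without library A. NP_Mrgprd followed at 1.04 ± 0.285 CPM (SD, n = 5), the other 10 types were under 0.5 CPM, and Th had 0 UMIs in 232 cells, which allows a share of up to 1.29% of cells with a UMI. Chrna3 was lower than in the rest in 10 types.

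Chrna4 encodes the alpha subunit of the most common high-affinity nicotine receptor of the brain. In Th its level was 24.1 CPM in library A, 28.5 in B, 19.3 in C, 21.7 in D and 21.9 in E. In NP_Nts it was 16.1 CPM in A, 21.3 in B, 21.6 in C, 15.3 in D and 20.7 in E. All libraries of both types lay above every library of the other 12 types, the nearest being 9.01 CPM in library A of PEP3_Trpm8, and the 2 ranges overlapped. Chrna4 was higher than in the rest both in Th at 23.1 ± 3.47 CPM (SD, n = 5; log2 fold change 3.46, SE 0.17, edgeR adjusted p = 6.25e-10) and in NP_Nts at 19.0 ± 3.06 CPM (SD, n = 5; log2 fold change 3.10, SE 0.31, edgeR adjusted p = 8.98e-07). Th and NP_Nts differed by 0.29 on the log2 scale (SE 0.16, edgeR adjusted p = 0.156), which did not pass the threshold that 52.5% of genes passed in that pair. Th stood above PEP3_Trpm8, the next type in order, by 3.199 on the log2 scale (edgeR adjusted p = 7.05e-07), in a pair where 48.6% of genes passed. Together NP_Nts and Th held 92.1% of the 796 UMIs of Chrna4.

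A UMI of Chrna4 was present in 154 of 232 Th cells (66.4%) and 241 of 400 NP_Nts cells (60.2%). It was present in 0 of 249 satellite glia (up to 1.20% allowed) and 0 of 56 endothelial cells (up to 5.36% allowed), with median depths of 56281, 53136, 17729 and 16889 UMIs in the same order. After thinning to 10000 UMIs the shares were 20.5% in Th and 18.1% in NP_Nts. The counts per positive cell were low, with a median of 2 UMIs in Th and 1 in NP_Nts and at most 9 in any cell. Beyond these types Chrna4 stood at 3.84 ± 3.51 CPM (SD, n = 5) in PEP3_Trpm8, with 9.01 in library A and 0.618 in library E, and at 1.505 ± 1.21 CPM (SD, n = 5) in NF_Calb1. Without library A these means fell to 2.55 and 0.985 CPM. The other 10 types held 0 to 0.624 CPM, and no UMI was counted in the 181 cells of PEP1_S100a11.Tagln2, which allows a share of up to 1.66%. Chrna4 was lower than in the rest in 10 types, and the call in NF2_Ntrk2.Necab2 (log2 fold change −2.39) was lost without library B and without library D, at log2 fold changes of −2.04 and −1.98.

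Chrna6 encodes an alpha subunit that in the brain is concentrated in dopaminergic neurons, and it was spread over more types than the other alpha subunits. In NP_Nts its level was 59.9 CPM in library A, 59.3 in B, 85.6 in C, 65.3 in D and 64.4 in E. Library C stood apart above 4 libraries that lay close together. In PEP1_S100a11.Tagln2 it was 79.6 CPM in A, 38.5 in B, 49.4 in C, 53.7 in D and 39.5 in E. Here library A was the highest, with 10 cells, and the range overlapped that of NP_Nts. The mean was 66.9 ± 10.8 CPM (SD, n = 5) in NP_Nts and 52.2 ± 16.7 CPM (SD, n = 5) in PEP1_S100a11.Tagln2. Chrna6 was higher than in the rest in NP_Nts (log2 fold change 1.56, SE 0.13, edgeR adjusted p = 1.45e-07) and in PEP1_S100a11.Tagln2 (log2 fold change 1.04, SE 0.19, edgeR adjusted p = 0.000606). The second call sat at the 2-fold edge and was lost without library A (0.77), without library C (0.99), with the library as a block (0.99), with no filter on low counts (0.96) and against the other neurons alone (0.97), all as log2 fold changes, with edgeR adjusted p between 0.000333 and 0.00355.

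Chrna6 stood at 17 CPM or more in 5 further types. The means were 41.7 ± 11.1 CPM in PEP1_Dcn, 34.6 ± 4.04 in NP_Mrgprd, 30.3 ± 18.6 in NF2_Ntrk2.Necab2, 24.0 ± 6.56 in PEP1_Slc7a3.Sstr2 and 17.4 ± 3.50 in NP_Mrgpra3 (SD, n = 5 for each). These levels were not 2-fold above the rest: the log2 fold change was 0.73 in PEP1_Dcn, 0.93 in NP_Mrgprd, 0.40 in NF2_Ntrk2.Necab2, −0.16 in PEP1_Slc7a3.Sstr2 and −0.45 in NP_Mrgpra3, and that in NP_Mrgprd passed at 1.04 without library D. The rest of NP_Mrgprd lacks that large type and the rest of the others holds it, so these folds do not rank the types. In NF2_Ntrk2.Necab2 the level was 3.58 CPM in library A, where 1 UMI was counted in 3 cells, and 22.7 to 53.6 CPM in the other 4 libraries. NP_Nts and PEP1_S100a11.Tagln2 differed by 0.43 on the log2 scale (SE 0.18, edgeR adjusted p = 0.065), in a pair where 36.2% of genes passed 0.05, and passed it without library A (0.58, adjusted p = 0.0118) and with the library as a block (0.45, adjusted p = 0.0222). NP_Nts and PEP1_Dcn, next in order, differed by 0.66 (SE 0.17, edgeR adjusted p = 0.00413), in a pair where 47.8% of genes passed. The step from these 7 types to the other 7 was not tested as such, and Th came next at 2.65 ± 1.49 CPM (SD, n = 5), with PEP2_Htr3a.Sema5a at 2.32, NF_Calb1 at 2.23, PEP3_Trpm8 at 1.12 and NF_Pvalb at 0.310 CPM. The mean fell to 1.47 CPM in NF_Calb1 without library D and to 0.648 CPM in PEP3_Trpm8 without library A. Chrna6 was lower than in the rest in 7 types.

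By cells, Chrna6 had a UMI in 91.5% of 400 NP_Nts cells, 86.4% of 900 NP_Mrgprd cells, 82.8% of 58 NF2_Ntrk2.Necab2 cells, 74.0% of 181 PEP1_S100a11.Tagln2 cells and 70.2% of 104 NP_Mrgpra3 cells. In PEP1_Dcn and PEP1_Slc7a3.Sstr2 the shares were 59.5% and 47.4%. No UMI was seen in satellite glia (0 of 249, up to 1.20% allowed) or endothelial cells (0 of 56, up to 5.36% allowed). The median depth was 53136 UMIs in NP_Nts and 105150 in NP_Mrgprd, against 17729 in satellite glia and 16889 in endothelial cells. At 10000 UMIs per cell the share was 47.9% in NP_Nts, 34.1% in PEP1_S100a11.Tagln2, 28.7% in NP_Mrgprd, 27.8% in NF2_Ntrk2.Necab2 and 15.98% in NP_Mrgpra3. Among the low types Th had a UMI in 12.9% of cells and NF_Calb1 in 12.8%, or 2.18% and 2.25% after thinning.

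Chrna7 encodes the subunit of the alpha7 channel, which needs no other subunit. Only 73 UMIs in 50 cells were counted, 54 of them in 31 of the 206 cells of PEP2_Htr3a.Sema5a. The level there was 7.28 CPM in library A, 1.02 in B, 4.85 in C, 5.21 in D and 1.79 in E, a mean of 4.03 ± 2.59 CPM (SD, n = 5). Every library held some, and in library A 8 of the 9 UMIs came from 1 cell. The share of PEP2_Htr3a.Sema5a cells with a UMI was 15.05% (2.47% after thinning), against 1.20% of satellite glia (3 of 249 cells, 0.667% after thinning) and 0 of 56 endothelial cells (up to 5.36% allowed), at median depths of 73919, 17729 and 16889 UMIs. The other 13 types were at 0 to 0.495 CPM, no higher than in satellite glia. Apart from a call in NP_Mrgprd given below, they are not read further. With all libraries Chrna7 was not tested in any type, since it fell below the filter. With the filter dropped it was higher in PEP2_Htr3a.Sema5a (log2 fold change 5.08, edgeR adjusted p = 5.21e-06) and lower in NP_Mrgprd (−3.08, edgeR adjusted p = 0.00128). It was also higher in PEP2_Htr3a.Sema5a in the fits without library A (4.88) and without library B (5.23). In those fits it passed the filter in that type alone, where it is high, so those calls support nothing further.

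**Figure D2:**
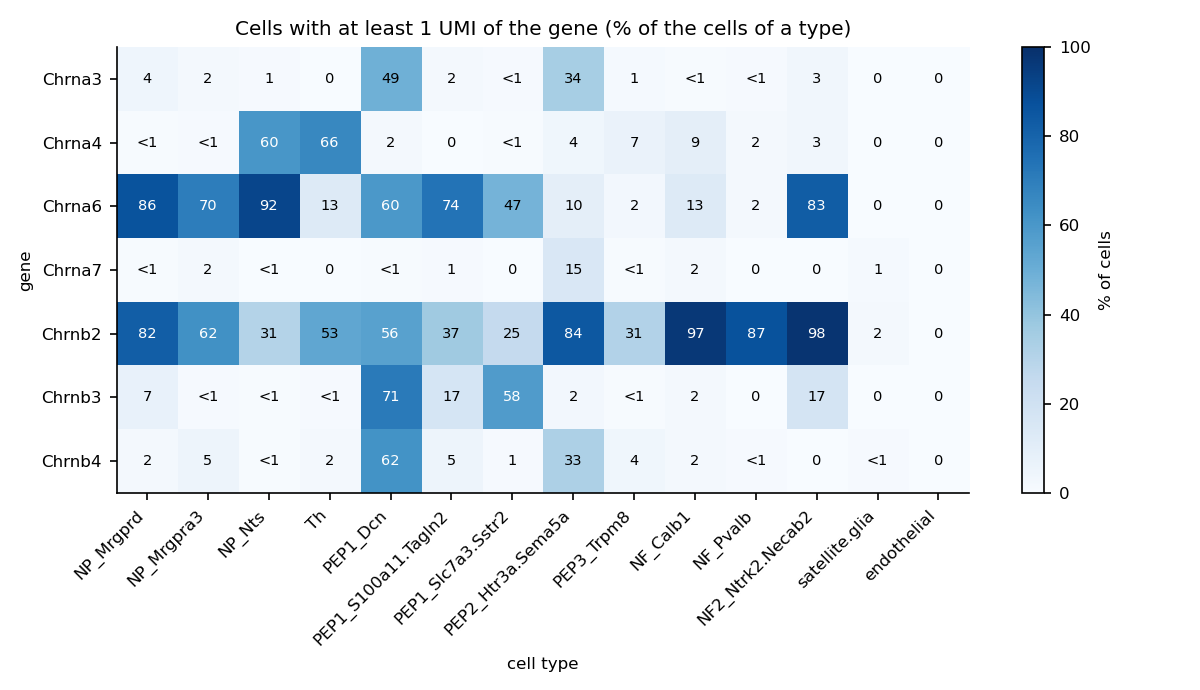
Share of the cells of each type (x axis) with at least 1 UMI of each subunit gene (y axis), as a colour from 0 to 100% with the rounded percent written in each tile. Chrna6 and Chrnb2 reach 82.8% and 98.3% of the 58 cells of NF2_Ntrk2.Necab2, and satellite glia stay at or below 2.01% for every gene.

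Chrnb2 encodes the beta subunit that pairs with alpha4 and alpha6. It was the only member at a mean of 5 CPM or more in all 12 neuron types. In NF_Calb1 its level was 62.3 CPM in library A, 72.2 in B, 53.4 in C, 49.9 in D and 63.1 in E. In NF_Pvalb it was 47.9 CPM in A, 58.3 in B, 47.0 in C, 47.3 in D and 42.6 in E. Library B was highest in both types, and the ranges overlapped. The mean was 60.2 ± 8.77 CPM (SD, n = 5) in NF_Calb1 and 48.6 ± 5.79 CPM (SD, n = 5) in NF_Pvalb, each higher than the rest (log2 fold change 1.59, SE 0.12, edgeR adjusted p = 4.92e-08, and log2 fold change 1.16, SE 0.13, edgeR adjusted p = 2.03e-06). NF_Calb1 and NF_Pvalb differed by 0.26 on the log2 scale (SE 0.14, edgeR adjusted p = 0.155), which did not pass, in a pair where 31.1% of genes did. NF_Calb1 and NF2_Ntrk2.Necab2 differed by 0.47 (SE 0.14, edgeR adjusted p = 0.0144), in a pair where 38.5% of genes passed. So the 3 neurofilament types held the 3 highest mean levels of Chrnb2, while the libraries of NF2_Ntrk2.Necab2 overlapped those of PEP2_Htr3a.Sema5a, next in order, and that step was not tested.

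After these came NF2_Ntrk2.Necab2 at 39.8 ± 3.81 CPM, PEP2_Htr3a.Sema5a at 35.1 ± 6.41 and NP_Mrgprd at 21.5 ± 3.64 (SD, n = 5 for each). The other 7 neuron types ran from 14.1 CPM in PEP1_Dcn to 7.54 CPM in NP_Nts, and the library ranges of neighbours in that stretch overlapped. The log2 fold change against the rest was 0.91 in NF2_Ntrk2.Necab2 and 0.72 in PEP2_Htr3a.Sema5a, both under 2-fold. A UMI of Chrnb2 was present in 98.3% of NF2_Ntrk2.Necab2 cells, 96.7% of NF_Calb1 cells, 86.7% of NF_Pvalb cells, 84.5% of PEP2_Htr3a.Sema5a cells and 82.2% of NP_Mrgprd cells, down to 25.1% in PEP1_Slc7a3.Sstr2. In satellite glia 5 of 249 cells had 1 UMI each (2.01%, 0.772 CPM), and in endothelial cells 0 of 56 did (up to 5.36% allowed). The median depths were 77900 UMIs in NF_Calb1, 38283.5 in PEP1_Slc7a3.Sstr2, 17729 in satellite glia and 16889 in endothelial cells. Thinned to 10000 UMIs, the share was 44.9% in NF_Calb1, 35.7% in NF_Pvalb, 19.3% in NP_Mrgprd, 7.33% in PEP1_Slc7a3.Sstr2 and 1.04% in satellite glia. The lowest neuron types thus kept a share several times that of satellite glia. Chrnb2 was lower than in the rest in 5 types, among them NP_Nts (log2 fold change −1.73, edgeR adjusted p = 3.24e-06), where Chrna4 and Chrna6 were higher. In PEP3_Trpm8 Chrnb2 was called lower without library E alone (log2 fold change −1.10).

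Chrnb4 encodes the beta subunit that pairs with alpha3. In PEP1_Dcn its level was 71.9 CPM in library A, 103 in B, 53.4 in C, 93.2 in D and 67.6 in E. In PEP2_Htr3a.Sema5a it was 20.2 CPM in A, 9.16 in B, 15.5 in C, 49.4 in D and 25.1 in E. All libraries of PEP1_Dcn lay above all of PEP2_Htr3a.Sema5a, and library B was again highest in the first type and lowest in the second, as it was for Chrna3. The mean was 77.9 ± 20.2 CPM (SD, n = 5) in PEP1_Dcn (log2 fold change 5.16, SE 0.25, edgeR adjusted p = 2.33e-09) and 23.9 ± 15.4 CPM (SD, n = 5) in PEP2_Htr3a.Sema5a (log2 fold change 2.64, SE 0.41, edgeR adjusted p = 0.000105), and both were higher than the rest. Between the 2 types the log2 difference was 1.76 (SE 0.31, edgeR adjusted p = 0.000198), and it passed in the fit with a block and without each library. PEP1_Dcn and PEP2_Htr3a.Sema5a together held 93.5% of the 1170 UMIs of Chrnb4, and the next type was NP_Mrgpra3 at 1.28 ± 1.61 CPM (SD, n = 5). That place rests on 2 UMIs in 1 of 4 cells of library A, without which NP_Mrgpra3 stood at 0.621 CPM and PEP1_S100a11.Tagln2, at 1.404 CPM, came next.

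Chrnb4 had a UMI in 101 of 163 PEP1_Dcn cells (62.0%, 37.8% after thinning) and 67 of 206 PEP2_Htr3a.Sema5a cells (32.5%, 16.03% after thinning), with a median of 5 UMIs per positive cell in both. In satellite glia 2 of 249 cells had a UMI (0.803%), in endothelial cells 0 of 56 (up to 5.36% allowed), and the median depths were 49516, 73919, 17729 and 16889 UMIs in the order named. Between libraries the share in PEP2_Htr3a.Sema5a ran from 15.4% in A to 52.5% in D, and that in PEP1_Dcn from 41.4% in C to 4 of 4 cells in A. Chrnb4 was lower than in the rest in 10 types, and 2 of these calls were lost in fits that left out a library. In NP_Mrgpra3 (log2 fold change −2.48) the call was lost without library D, at −1.97. In PEP1_S100a11.Tagln2 (log2 fold change −1.68) it was lost without library B, C or D, at −1.73, −1.56 and −1.47. In PEP3_Trpm8 Chrnb4 was not called, but was lower at an adjusted p under 0.05 (edgeR adjusted p = 0.0109), without library E (log2 fold change −2.79), in DESeq2 (−2.05), with no filter (−2.06) and against the other neurons alone (−2.08).

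Chrnb3 encodes an accessory subunit that joins alpha6 receptors in the brain. In PEP1_Dcn its level was 37.7 CPM in library A, 72.3 in B, 46.9 in C, 98.7 in D and 56.0 in E. In PEP1_Slc7a3.Sstr2 it was 40.7 CPM in A, 60.2 in B, 27.6 in C, 30.4 in D and 37.9 in E. Library D was highest in the first type and next to lowest in the second, the ranges overlapped, and every library of both lay above every library of the other 12 types. The mean was 62.3 ± 24.0 CPM (SD, n = 5) in PEP1_Dcn (log2 fold change 3.97, SE 0.25, edgeR adjusted p = 3.00e-08) and 39.3 ± 12.8 CPM (SD, n = 5) in PEP1_Slc7a3.Sstr2 (log2 fold change 3.21, SE 0.21, edgeR adjusted p = 9.71e-09), both higher than the rest. The types differed by 0.72 on the log2 scale (SE 0.22, edgeR adjusted p = 0.0196), in a pair where 24.8% of genes passed, but not without library D (0.42, adjusted p = 0.232) or without library E (0.75, adjusted p = 0.0569).

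The other PEP1 type, PEP1_S100a11.Tagln2, held Chrnb3 at 8.20 ± 3.60 CPM (SD, n = 5), and its log2 fold change of 0.28 was not called. NP_Mrgprd followed at 2.68 ± 1.07 CPM and NF2_Ntrk2.Necab2 at 1.67 ± 1.21 CPM (SD, n = 5 for both). In NP_Mrgprd a UMI of Chrnb3 was found in 64 of 900 cells (7.11%), with up to 18 UMIs in 1 cell. The share of cells was 71.2% in PEP1_Dcn, 57.9% in PEP1_Slc7a3.Sstr2, 17.1% in PEP1_S100a11.Tagln2 and 17.2% in NF2_Ntrk2.Necab2, and 38.6%, 28.7%, 6.26% and 2.16% after thinning. Satellite glia had 0 of 249 (up to 1.20% allowed) and endothelial cells 0 of 56 (up to 5.36% allowed), at median depths of 17729 and 16889 UMIs against 49516 in PEP1_Dcn and 38283.5 in PEP1_Slc7a3.Sstr2. Chrnb3 was lower than in the rest in 10 types, and the call in NF2_Ntrk2.Necab2 (log2 fold change −1.71) was lost without library E, at −1.50. Chrna5, the other accessory subunit gene, was not analysed here.

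Read by type, the subunits fell into different sets. PEP1_Dcn had 3 of the 6 tested members higher (Chrna3, Chrnb3 and Chrnb4), beside 6.87% of all genes tested there. NP_Nts had 2 (Chrna4 and Chrna6, beside 6.13%) and so did PEP2_Htr3a.Sema5a (Chrna3 and Chrnb4, beside 8.74%). A single member was higher in Th (Chrna4, beside 7.06%), PEP1_Slc7a3.Sstr2 (Chrnb3, beside 6.93%), PEP1_S100a11.Tagln2 (Chrna6, beside 3.98%), NF_Calb1 (Chrnb2, beside 14.8%) and NF_Pvalb (Chrnb2, beside 13.4%). In the other 6 types edgeR called 0 members higher, beside 5.82% of genes in NP_Mrgprd, 3.12% in NP_Mrgpra3, 7.28% in PEP3_Trpm8, 7.79% in NF2_Ntrk2.Necab2, 21.4% in satellite glia and 17.4% in endothelial cells. In these 6 types 2 pairs had an unadjusted p under 0.05 in the higher direction, and DESeq2 called 0. Both pairs missed the call by fold alone, Chrna6 in NP_Mrgprd at a log2 fold change of 0.93 (edgeR adjusted p = 1.82e-05) and Chrnb2 in NF2_Ntrk2.Necab2 at 0.91 (edgeR adjusted p = 5.77e-05).

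Lower calls were most numerous in satellite glia, NF_Calb1 and NF_Pvalb. All 6 tested members were lower in satellite glia, beside 32.5% of genes, and 5 of 6 were lower in NF_Calb1 (beside 15.8%) and in NF_Pvalb (beside 17.5%), where Chrnb2 was the exception. In endothelial cells, with 56 cells in all, Chrna6 and Chrnb2 were lower, 2 of 6 members beside 34.2% of genes, so their count is near that of all genes. Chrna3 and Chrnb3 were added by DESeq2, with no filter and with the library as a block, Chrnb4 by the block, and at an adjusted p under 0.05 all 6 were lower, beside 40.6% of genes. The members at 0 in these types have no fold given here, as the fit then depends on its prior count. The median log2 fold change of all genes was −0.35 in satellite glia and −0.83 in endothelial cells, so most genes had values below 0 there, and the median moved to −0.71 and −1.50 with no filter. With a UMI in at least 25% of a type's cells asked of a call, 3 of the 52 lower calls and 12 of 12 higher calls were left, beside 28.1% of the lower and 83.1% of the higher calls of all genes.

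Members with a UMI were also counted per cell, with means over libraries. PEP1_Dcn cells held UMIs of 3.17 ± 0.575 of the 7 members (SD over libraries, n = 5), and 40 of 163 cells held 5 and 1 held 6. The mean was 1.97 ± 0.362 members per cell in NF2_Ntrk2.Necab2, 1.91 ± 0.159 in NP_Mrgprd, 1.85 ± 0.162 in NP_Nts and 1.78 ± 0.402 in PEP2_Htr3a.Sema5a (SD, n = 5 for each), and these 4 lay within their spread. At the low end NF_Pvalb had 0.939 and PEP3_Trpm8 0.512 members per cell, and 60.1% of PEP3_Trpm8 cells had none. Depth differs between these types, with a median of 30800.5 UMIs in PEP3_Trpm8 and 105150 in NP_Mrgprd, and its part in these counts was not tested. Of 249 satellite glia 239 had no UMI of any member, and so did all 56 endothelial cells.

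Named combinations were counted in single cells and were not set against the shares of the single genes. Chrna3, Chrnb4, Chrnb3 and Chrna6 were found together in 63 of 163 PEP1_Dcn cells (38.7%), with 29.9% of cells in the lowest library and 51.4% in the highest, in 1 of 900 NP_Mrgprd cells and in no cell of the other 12 types. Chrna6 with Chrnb2 was found in 662 of 900 NP_Mrgprd cells (73.6%) and 47 of 58 NF2_Ntrk2.Necab2 cells (81.0%). In NF2_Ntrk2.Necab2, Chrnb2 was in 47 of 48 cells with Chrna6 and in 10 of 10 without. In NP_Nts the frequent pair was Chrna4 with Chrna6, in 220 of 400 cells (55.0%), and 62 cells (15.5%) held Chrnb2 as well. Singly, Chrna4 was found in 241 and Chrna6 in 366 of these 400 cells. Chrna4 with Chrnb2 was found in 88 of 232 Th cells (37.9%). Chrna6 with Chrnb3 was found in 115 of 342 PEP1_Slc7a3.Sstr2 cells (33.6%).

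Within a type, cells with one subunit were compared with cells without it, library by library, where both groups held at least 10 cells. In PEP1_Dcn, Chrnb4 was detected in 19 of 21 cells with Chrna3 and 6 of 14 without in library B, in 14 of 14 and 4 of 14 in library D, and in 32 of 32 and 10 of 35 in library E. All 3 libraries were higher in cells with Chrna3, by 63.5 ± 13.7 percentage points (SD, n = 3; exact two-sided sign-flip p = 0.25, the smallest that 3 libraries allow, adjusted p = 0.321 over 9 comparisons). Over all libraries 78 of the 80 cells with Chrna3 had Chrnb4 (97.5%), against 23 of 83 without (27.7%), and their median depths were 59948.5 and 42082 UMIs. With cells thinned to 10000 UMIs the difference was 44.3 points. In PEP2_Htr3a.Sema5a the counts were 20 of 22 against 1 of 18 in library D and 25 of 33 against 3 of 44 in library E, or 59 of 71 (83.1%) against 8 of 135 (5.93%) over all libraries, at median depths of 70351 and 75251 UMIs. With 2 libraries this was not tested. So Chrna3 and Chrnb4 were detected mostly in the same cells of both types, at depths that were higher for those cells in the first type and lower in the second.

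**Figure D3:**
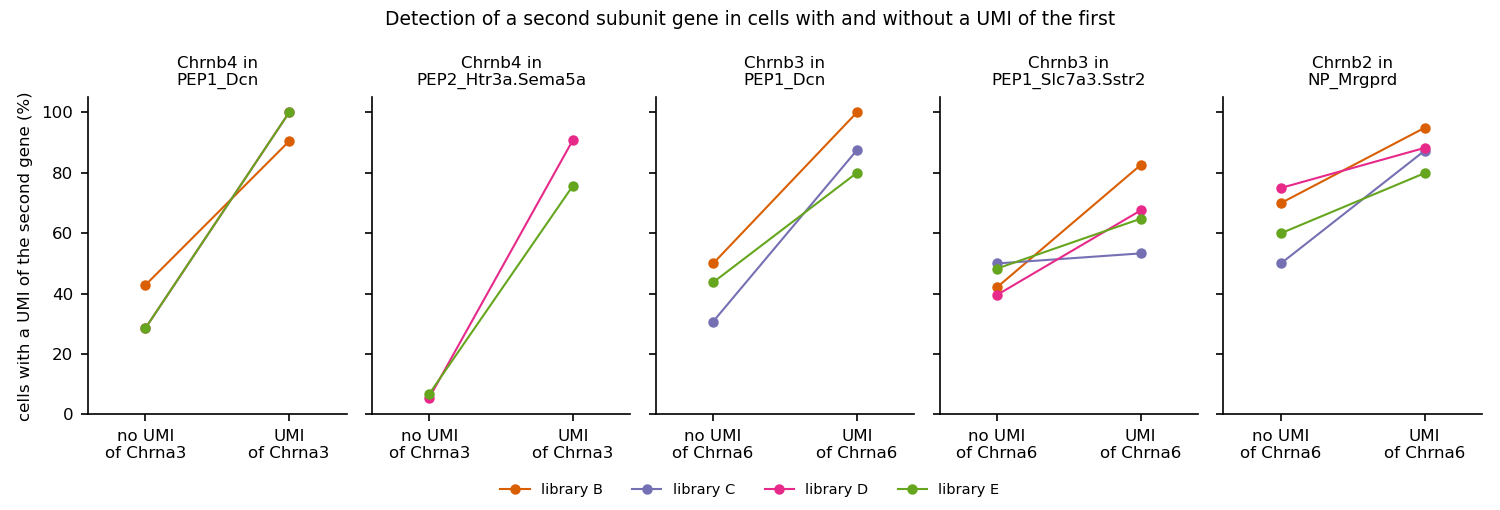
Share of cells with a UMI of a second subunit gene (y axis, %) among cells without and with a UMI of the first (x axis) in 5 pairings of gene and type, with 1 line per library that had at least 10 cells on both sides. In PEP1_Dcn the share with Chrnb4 is 28.6 to 42.9% without Chrna3 and 90.5 to 100% with it.

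In PEP1_Dcn, Chrnb3 was detected in 87 of 97 cells with Chrna6 and in 29 of 66 without over all libraries. Chrnb3 was found in 25 of 25 cells with Chrna6 and 5 of 10 without in library B, in 14 of 16 and 4 of 13 in C, and in 28 of 35 and 14 of 32 in E. The difference was 47.7 ± 10.4 percentage points (SD, n = 3; exact two-sided sign-flip p = 0.25, adjusted p = 0.321) and 23.8 points after thinning, and the median depths were 55708 UMIs with and 42373 without Chrna6. In PEP1_Slc7a3.Sstr2 it was 22.1 ± 15.9 points (SD, n = 4; exact two-sided sign-flip p = 0.125, the smallest that 4 libraries allow, adjusted p = 0.321), higher in 4 of 4 libraries, and 8.93 points after thinning. Chrna6 and Chrnb2 in NP_Mrgprd differed by 23.9 ± 10.2 points (SD, n = 4; exact two-sided sign-flip p = 0.125, adjusted p = 0.321), but by 2.13 points after thinning, with median depths of 107381 and 81770.5 UMIs. For Chrna4 and Chrnb2 the difference was −9.21 ± 8.55 points in NP_Nts (SD, n = 4; exact two-sided sign-flip p = 0.125, adjusted p = 0.321), −5.12 without library C and 0.664 after thinning, and 9.44 ± 8.36 points in Th (SD, n = 3; exact p = 0.25, adjusted p = 0.321), 5.67 without library E and 2.71 after thinning. No pair passed a threshold, which these numbers of libraries cannot reach, and pairs with Chrnb2 differed by under 4 points after thinning, which lowers every share and so also narrows differences in points.

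Of the remaining pairs, Chrna6 and Chrnb2 differed by 5.83 ± 3.85 points in PEP1_Dcn (SD, n = 3; exact p = 0.25, 3.75 without library B) and by −0.886 after thinning. In PEP1_Slc7a3.Sstr2 that pair differed by 6.91 ± 12.9 points (SD, n = 4; exact p = 0.375, 1.88 without library D and 11.96 without library B). Chrna3 and Chrnb2 in PEP1_Dcn differed by 13.4 ± 20.7 points (SD, n = 3; exact p = 0.5, 2.22 without library D and 22.6 without library E). In PEP2_Htr3a.Sema5a, Chrna3 was found in 17 of 31 cells with Chrna7 and 54 of 175 without, at median depths of 93077 and 70378 UMIs, and no library had enough cells for a comparison.

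Members that share a stretch of the genome were placed in GENCODE vM21 on GRCm38. On chromosome 9, Chrna5 spans 54980880 to 55007779 on the plus strand, Chrna3 spans 55010111 to 55026562 on the minus strand and Chrnb4 spans 55028154 to 55048779 on the minus strand, with gaps of 2331 and 1591 bases. On chromosome 8, Chrnb3 spans 27368711 to 27399730 on the plus strand and Chrna6 spans 27403212 to 27413944 on the minus strand, 3481 bases apart. None of these genes overlaps its neighbour. Chrna4 lies on chromosome 2, Chrna7 on chromosome 7 and Chrnb2 on chromosome 3.

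**Figure D4:**
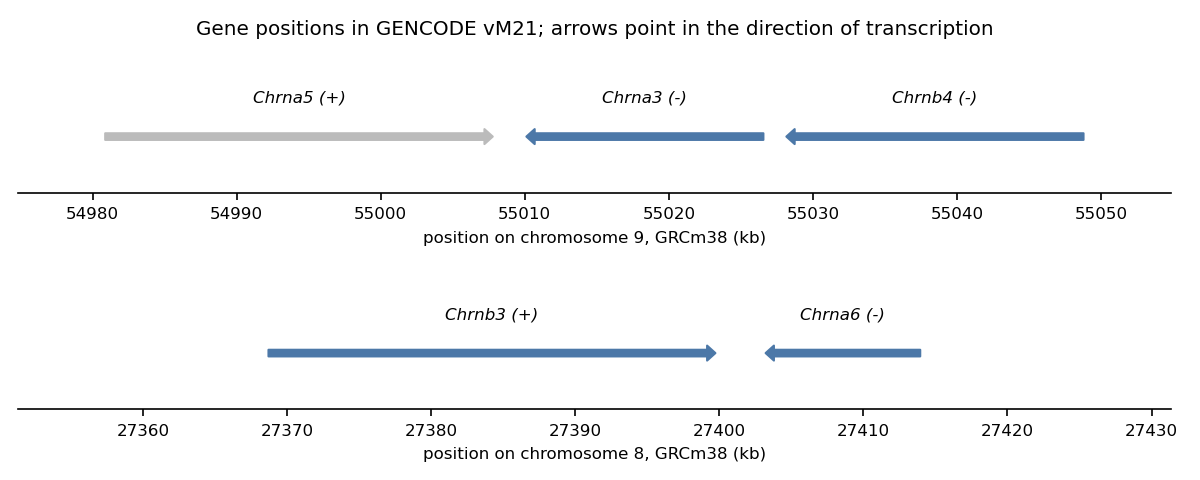
Positions (x axis, kb on GRCm38) of the Chrna5, Chrna3 and Chrnb4 genes on chromosome 9 and of Chrnb3 and Chrna6 on chromosome 8, drawn to scale within each row with arrows in the direction of transcription. Grey marks Chrna5, not analysed here, and the gap between Chrna3 and Chrnb4 is 1591 bases.

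The neighbours on chromosome 9 had the most similar profiles of any pair of members. Over the 14 types, the Pearson correlation of log2(CPM + 1) between Chrna3 and Chrnb4 was 0.961, and each was the closest of 12591 ranked genes to the other. It was 0.907 over the 70 sums of a type in a library. The types share libraries, so these are descriptions with no p. The neighbours on chromosome 8 were less alike, with 0.582 between Chrna6 and Chrnb3. That was rank 1192 among the genes most like Chrna6 and 241 among those most like Chrnb3. Those ranks were 477 and 113 over the 70 sums, and 1482 and 645 with 10 in place of 1 added to the CPM. With 10 added, Chrnb3 was closer to Chrnb4 (0.604) than to Chrna6 (0.476). Chrna4 and Chrnb2 stood at 0.108, and at −0.102 with 10 in place of 1 added to the CPM. After Chrnb4, the genes most like Chrna3 were Scgn (0.931) and Arsj (0.880), and the same pair followed Chrna3 for Chrnb4 (0.949 and 0.889). For Chrna4 they were Fam122b (0.819), Kdm6a (0.818) and Smim6 (0.795), and for Chrna6 they were F2rl2 (0.939), Zfp935 (0.9004) and Spopl (0.899). For Chrnb2 they were Limk1 (0.978), Exoc1 (0.974) and Fam98a (0.974), and for Chrnb3 they were Orm3 (0.942), Camp (0.894) and Wscd2 (0.892). Over the 70 sums Kdm6a fell to rank 463 for Chrna4, Zfp935 and Spopl to 449 and 910 for Chrna6, and Exoc1 and Fam98a to 771 and 313 for Chrnb2, so these 5 depend on the measure. With 10 added to the CPM Arsj fell to rank 12 for Chrna3 and 40 for Chrnb4, Exoc1 to 41 for Chrnb2 and Wscd2 to 15 for Chrnb3.

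Promoter sequences from RefSeq on GRCm38.p6 matched 6 of the 8 members, and 2 are shown, Chrna3 and Chrnb2, as the only members with a row whose windows hold no annotated exon. Each run is the 250 bases before the start of the gene, at chr9:55026563-55026812 (minus strand) and chr3:89764633-89764882 (minus strand). Both strands were searched for 3 motifs: the GC box GGGCGG, read CCGCCC on the other strand, the E-box CAGCTG, and the E-box CACCTG, read CAGGTG on the other strand. Of 32851 promoters of this length, 32.7% hold the GC box, 13.001% the E-box CAGCTG and 17.2% the E-box CACCTG. Capitals mark a match. The Chrna3 run holds 1 GC box and neither E-box with 63.2% G and C, and the Chrnb2 run holds none of the 3 with 59.6%, which says only which of these letters are in these windows. Among the windows not shown, that of Chrnb4 holds no GC box and 1 match of each E-box, and that of Chrna4 holds 3 GC boxes and neither E-box.
Chrna3: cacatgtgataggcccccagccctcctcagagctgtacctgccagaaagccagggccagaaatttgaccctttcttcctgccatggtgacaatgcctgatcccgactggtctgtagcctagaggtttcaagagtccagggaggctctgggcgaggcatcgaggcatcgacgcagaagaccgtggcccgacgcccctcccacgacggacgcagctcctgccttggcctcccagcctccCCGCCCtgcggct
Chrnb2: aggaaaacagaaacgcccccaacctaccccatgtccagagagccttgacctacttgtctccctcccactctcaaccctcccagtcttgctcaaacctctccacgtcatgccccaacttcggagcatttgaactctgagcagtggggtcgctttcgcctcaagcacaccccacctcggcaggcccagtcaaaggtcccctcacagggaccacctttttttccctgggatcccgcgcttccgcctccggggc

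Other genes of the pathway were read from lists. Of 8 other nicotinic subunit genes 4 have a row (Chrna1, Chrna10, Chrnb1 and Chrne), and none passed the filter in any type. Among them Chrna10 had its highest level in PEP2_Htr3a.Sema5a, the type that also led for Chrna7, at 4.54 ± 3.69 CPM (SD, n = 5), with 0 in library A and 8.90 in library D. Of 11 assembly factors and Ly6 proteins that bind nicotinic receptors, 9 have a row, 8 were tested, and each of the 8 was higher in at least 1 type and lower in at least 1, beside 58.9% and 64.8% of the 13733 genes tested in any type. Ric3, a chaperone of nicotinic subunits, was highest where Chrnb2 was, in NF_Calb1 at 58.6 ± 6.33 CPM (SD, n = 5; log2 fold change 1.42, SE 0.10, edgeR adjusted p = 1.50e-08), and was also higher in NF_Pvalb. Tmem35, another chaperone of these receptors, was higher in NF_Pvalb at 88.3 ± 12.7 CPM (SD, n = 5) and in NP_Mrgprd at 53.2 ± 4.44 CPM (SD, n = 5). Lynx1, a Ly6 protein that dampens nicotinic receptors, was higher in the 3 neurofilament types and in PEP2_Htr3a.Sema5a, with 484 ± 40.6 CPM (SD, n = 5) in NF_Calb1. Ly6h was highest in PEP2_Htr3a.Sema5a at 425 ± 97.7 CPM (SD, n = 5; log2 fold change 3.95, SE 0.20, edgeR adjusted p = 1.15e-08). Of 8 genes that handle acetylcholine 6 have a row, and each of the 6 was higher in at least 1 type, as were the 3 tested of 5 muscarinic receptor genes, beside the same 58.9% of all genes, so these counts say little about the lists. The muscarinic genes were tested in only 2 to 7 types and Colq in 2. A gene can pass the filter through the type where it is high, which limits these counts further.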

How the data were processed

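The authors dissociated lumbar dorsal root ganglia of 5 mice, made droplet libraries, aligned reads with Cell Ranger to mm10 and filtered, clustered and annotated the cells with Seurat, and the deposited matrix holds UMI counts of the cells they kept. The libraries in the cell names were not tied to the sample labels and are called A to E. The 8 members and all gene lists were chosen with earlier results of these data known. Of 17271 rows, 4 name no mouse gene (6.37e-05% of 224553362 UMIs) and were left out. The type NF_Calb1 is spelled in a second way in the annotation, and its 180 cells were given 1 name. No doublet caller was run here.

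UMIs were summed per type and library, and CPM is the count over all UMIs of that sum times 1000000, with n = 5 libraries. Tests used edgeR 4.0.16 (filterByExpr, TMM, quasi-likelihood F-test) in R 4.3.3, with p adjusted by Benjamini-Hochberg over all genes tested in a comparison. Calls asked for an adjusted p under 0.01 and a fold of 2, and 0.05 between a pair of types. For such pairs, the highest type of a member was fitted against each next type by mean CPM until a pair passed. Levels, co-detection and likeness were computed with scipy 1.17.1 and numpy 2.4.6 under Python 3.11.15. Thinned shares are the expected share of cells with a UMI after each cell is reduced to 10000 UMIs, and no cell was shallower. Named genes are the members, the genes of the lists, and the 3 genes most correlated with each member of at least 5 CPM among genes of at least 5 CPM. The share of a type that a count of 0 allows was taken as 3 cells.

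Both sums of a comparison come from the same mouse, which pairs them. The correlation of their deviations across genes ran from −0.021 in PEP3_Trpm8 (library E) to 0.398 in NP_Mrgprd (library B), with a median of 0.112. The alternatives were DESeq2 1.42.0, no filter, the library as a block, an adjusted p under 0.05, a UMI in at least 25% of a type's cells, comparison with other neurons alone, each library left out, means over cells, thinning, and other measures of likeness.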

Additional observations from a re-analysis of the deposited data

Results flagged for a closer look

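In 42 groups of 5 libraries (a member in a type, at a mean of at least 1 CPM), a library was marked where its gap to the next one was over 0.71 of the range, which chance alone does in about 1 in 20 groups. In 2 groups a library was far from the other 4, about the number that chance alone gives. Chrna3 in PEP1_S100a11.Tagln2 was 21.6 CPM in library A and 0 to 1.39 CPM in the others. Chrna6 in NP_Nts was 85.6 CPM in library C and 59.3 to 65.3 CPM in the others.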

How the results depend on the processing

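Of the 12 higher calls 11, and of the 52 lower calls 48, held under every alternative run for them other than the share of 25% of cells, which by its construction left 3 lower calls and all 12 higher ones. The comparison with other neurons alone was not run for satellite glia and endothelial cells. Calls lost or gained are given beside each member. With the library as a block, Chrna6 in PEP1_S100a11.Tagln2 lost its call, 3 members gained a lower call in endothelial cells (2 of them also in DESeq2 and with no filter), and the difference of Chrna6 between NP_Nts and PEP1_S100a11.Tagln2 passed at a log2 difference of 0.45. The block changed no other call of a member. With each library left out, the log2 difference between the highest and second type ran from 0.68 to 1.72 for Chrna3, from 0.31 to 0.58 for Chrna6 and from 0.42 to 0.89 for Chrnb3, and each of these crossed the threshold in at least 1 fit. Thinning changed co-detection to 44.3 points for Chrna3 and Chrnb4 and 23.8 points for Chrna6 and Chrnb3 in PEP1_Dcn, to 2.13 points for Chrna6 and Chrnb2 in NP_Mrgprd, and across 0 to 0.664 points for Chrna4 and Chrnb2 in NP_Nts and to −0.886 points for Chrna6 and Chrnb2 in PEP1_Dcn. The cause was not tested. The counts of all genes called in a type moved by over 1.5 times with the 25% share alone, in 14 of 28 counts. By means over cells the highest type was the same for all 7 members, and 7 of 12 types kept their rank for Chrnb2. Depth limits the low end, since the median cell holds 17729 UMIs in satellite glia and 16889 in endothelial cells, and a share of 0 there allows up to 1.20% and 5.36% of cells with a UMI, which sets no limit on cells that express the gene.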

Other observations

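PEP1_Dcn, the type with the most nicotinic subunits, was also the highest type for Slc5a7, the transporter that takes up choline for acetylcholine synthesis. Its level there was 17.1 CPM in library A, 52.2 in B, 34.5 in C, 41.7 in D and 48.8 in E. Library A, with 4 cells, was the lowest, and the mean was 38.9 ± 13.9 CPM (SD, n = 5; log2 fold change 5.98, SE 0.29, edgeR adjusted p = 2.33e-09). A UMI of Slc5a7 was present in 68.7% of PEP1_Dcn cells (30.9% after thinning) and in 0 of 249 satellite glia and 0 of 56 endothelial cells (up to 1.20% and 5.36% allowed), at median depths of 49516, 17729 and 16889 UMIs. Slc5a7 was also higher in PEP1_S100a11.Tagln2. Chat and Slc18a3, which make and package acetylcholine, were not analysed here. Of the enzymes that break acetylcholine down, Ache was highest in PEP3_Trpm8 at 273 ± 53.7 CPM (SD, n = 5; log2 fold change 2.37, edgeR adjusted p = 1.30e-07) and Bche in PEP2_Htr3a.Sema5a at 18.7 ± 4.08 CPM (SD, n = 5; log2 fold change 2.88, edgeR adjusted p = 4.70e-07).

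Of the muscarinic receptors, Chrm2 was highest in PEP1_S100a11.Tagln2 at 11.01 ± 2.51 CPM (SD, n = 5; log2 fold change 3.22, edgeR adjusted p = 4.16e-06), Chrm1 in PEP1_Slc7a3.Sstr2 at 4.86 ± 1.87 CPM (SD, n = 5; log2 fold change 3.92, edgeR adjusted p = 5.91e-06) and Chrm4 in NP_Mrgprd at 2.58 ± 1.29 CPM (SD, n = 5; log2 fold change 2.33, edgeR adjusted p = 4.97e-05). Chrm1 was tested in 2 types, Chrm2 in 7 and Chrm4 in 5. A gene can pass the filter on low counts through the type where it is high, so these muscarinic calls support nothing further. Of the 6 genes listed as neighbours of the gene clusters, Ireb2, Hykk and Psma4 lie before Chrna5 on chromosome 9, while Adamts7, Tacc1 and Hook3 proved to lie too far off to count as neighbours. In PEP1_Dcn Psma4 (log2 fold change −0.15) and Ireb2 (0.20) were not called, and Hykk was not tested. In PEP2_Htr3a.Sema5a Psma4 (−0.04) and Ireb2 (0.23) were not called, and Hykk was higher (1.57, edgeR adjusted p = 0.000299). Hykk was also higher in NF_Calb1, its highest type (1.84, edgeR adjusted p = 2.33e-05), where Chrna3 and Chrnb4 were lower. Hykk was tested in 3 types only and can pass the filter where it is high, so its higher calls support nothing further.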
